A study of Homo sapiens with 16 samples.

Results

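Ribosomal protein pseudogenes were counted in spheroids grown from LNCaP, 22Rv1 and PC3, which are 3 established lines of human prostate cancer cells. Members were the genes whose symbol has the form of a ribosomal protein gene followed by P and a number, such as RPL32P16 or RPSAP58, and whose counts summed to at least 30 over the 16 libraries. Of 1376 symbols of that form, 920 had 0 counts, 309 had 1 to 29 counts and 147 were members, out of 62703 genes in the table. Members were thus chosen by their summed count, and their presence in the data is not a result. Just inside the limit lay RPS19P7 and RPL23AP57 with 33 counts each, and just outside it RPL7AP39 with 29 and RPL15P2 with 28. Each line had been transfected with 25 pmol of a small interfering RNA pool against MED12 (siMED12), a gene of the kinase part of the Mediator coactivator, or with a nontargeting pool (siCtrl). Cells were kept for 3 days in 2D culture and 4 days as spheroids, with no other treatment, before 3′ tag sequencing (BRB-seq). LNCaP had 3 siCtrl and 3 siMED12 libraries, and 22Rv1 and PC3 had 3 siCtrl and 2 siMED12 libraries each. The study's methods describe replicates as biological, while the labels name no culture for a single library. P-values measure the spread between these libraries of the same 3 lines.

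Processed pseudogenes arise when a messenger RNA is copied back into DNA and inserted elsewhere in the genome, so they lack introns, often carry a remnant of the poly(A) tail and usually have no promoter of their own. Ribosomal protein genes are transcribed at high levels in dividing cells and have left more such copies in the human genome than most gene families. A read from a young copy can match its parent gene equally well, and counts of a pseudogene can therefore hold reads of its parent, in either direction. How reads matching several genes were assigned is not given in the sources used here.

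The RPL32 family held the 2 members called with siMED12, each in 1 line only, and its sequences are shown for that reason. RPL32P16 is a member only through the libraries in which it was high, so its call is a description. Whether reads of 1 RPL32 copy were counted under another was not tested. RPL32 encodes a protein of the large ribosomal subunit. The stretch of coding bases 286 to 408 of RPL32, counted from 1 at the A of its start codon, is printed 5′ to 3′ from GRCh38 with the matching stretch of the 2 pseudogenes. It lies at chr3:12836094-12836216 on the minus strand in RPL32, at chr6:151099811-151099933 on the plus strand in RPL32P16 and at chr7:44468182-44468304 on the plus strand in RPL32P18. Capitals mark bases of a pseudogene that differ from RPL32 and, in RPL32, bases that differ in either pseudogene.
RPL32: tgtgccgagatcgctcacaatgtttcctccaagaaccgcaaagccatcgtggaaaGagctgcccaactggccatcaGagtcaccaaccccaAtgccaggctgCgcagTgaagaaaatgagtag
RPL32P16: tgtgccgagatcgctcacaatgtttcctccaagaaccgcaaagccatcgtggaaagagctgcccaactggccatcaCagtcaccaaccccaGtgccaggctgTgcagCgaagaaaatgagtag
RPL32P18: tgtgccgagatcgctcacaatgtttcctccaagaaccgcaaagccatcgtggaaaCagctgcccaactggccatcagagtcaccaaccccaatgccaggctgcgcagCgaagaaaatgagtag
Over the whole coding sequence of 408 bases, RPL32P16 had 13 base differences from RPL32 and RPL32P18 had 7. The 3 differences they shared were G80A, A183G and T393C. RPL32P16 also carried A1T, which removes the start codon. In the printed stretch the differences were G362C, A377G, C388T and T393C for RPL32P16, and G341C and T393C for RPL32P18.

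The RPL37 pseudogenes varied widely between libraries of 1 group, and coding bases 151 to 270 of RPL37, which encodes another large-subunit protein, are shown with 2 of them. They lie within chr5:40832528-40834254 on the minus strand in RPL37, where an intron interrupts them, at chr11:67682789-67682908 on the minus strand in RPL37P2 and at chr19:52143193-52143312 on the plus strand in RPL37P23. Capitals have the same meaning as above.
RPL37: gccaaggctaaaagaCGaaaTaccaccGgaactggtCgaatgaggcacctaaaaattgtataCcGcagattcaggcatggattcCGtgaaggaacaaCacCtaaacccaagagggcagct
RPL37P2: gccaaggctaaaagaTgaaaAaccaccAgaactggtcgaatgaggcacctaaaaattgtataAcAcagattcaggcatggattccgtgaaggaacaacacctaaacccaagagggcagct
RPL37P23: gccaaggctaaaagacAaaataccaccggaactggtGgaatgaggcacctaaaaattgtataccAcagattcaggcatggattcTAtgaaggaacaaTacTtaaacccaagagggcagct
RPL37P2 and RPL37P23 each differed from RPL37 at 12 of 294 coding bases and RPL37P6, the third member of the family, at 15. The only difference that all 3 shared was G215A, counted from 1 at the A of the RPL37 start codon. Of the 15 RPL37 pseudogene symbols, the 3 members held all 617 counts. Base 215 was picked because these 3 members share A there, so their A was fixed in advance. Of the other symbols, all at 0 counts, 3 had A at that base, 7 had G and 2 could not be aligned there. A link between this base and having counts was not tested.

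Library totals ran from 479118 to 993807 counts, and 10566 genes passed the expression filter, 108 members among them. The 39 members that did not pass had at most 113 counts in all, so counts of members called refer to the more abundant ones. KLK3, the gene of prostate-specific antigen, had a level of 2473 CPM (counts scaled to a common library total) in LNCaP siCtrl, 28.9 in 22Rv1 and 13.8 in PC3, and CAV1, a caveolar coat gene, had 2.80, 14.8 and 533 CPM, in the order of the line labels. Counts of genes restricted to 1 line appeared in libraries of the other lines at 0.272% to 4.56% of their source level, highest in the 22Rv1 siMED12 replicate 3 library. These genes, 2 for LNCaP, 5 for 22Rv1 and 28 for PC3, were chosen with other-line siCtrl means of at most 2% of that level. The choice thus limited the siCtrl values, and low expression was not told apart from carry-over. MED12 itself was low. It stood at 9.94, 12.9 and 11.7 CPM in LNCaP siCtrl against 6.99, 6.67 and 10.4 in siMED12, at 23.4, 16.7 and 19.3 against 7.42 and 8.98 in 22Rv1, and at 28.4, 8.41 and 18.8 against 15.8 and 14.5 in PC3. The groups overlapped in LNCaP and PC3 and not in 22Rv1, and the log2 fold changes of -0.50, -1.28 and -0.22 had adjusted p of 0.878, 0.175 and 0.987 (edgeR quasi-likelihood test, Benjamini-Hochberg over the 10566 genes). The study reported from its own measurements that knockdown was highly efficient in mRNA and protein, and also in spheroids. The low tag counts here cannot decide how far MED12 fell.

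The 147 members had 52 parent genes, of which 21 had 1 member and RPL12 had 9. There were 91 members from large-subunit genes with 305335 counts and 56 from small-subunit genes with 162961 counts. The annotation (Gencode release 44 on GRCh38, the source of the coordinates given here) called 135 of them processed pseudogenes and 10 transcribed processed pseudogenes. RPSAP58 was annotated as protein-coding and 1 of the 2 genes named RPL23AP7 as a long noncoding RNA. A protein-coding gene enclosed 18 members on the same strand and 36 on the opposite strand only. An annotated exon of another gene overlapped 15 members, 6 of them on the same strand, and reads cannot be divided between such genes with certainty.

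Members were closer to their parents in sequence than the symbols without counts. The median identity to the parent transcript was 96.7% for members, 91.4% for symbols with 1 to 29 counts and 84.3% for symbols at 0. An identity of at least 97% was found in 69 members (46.9%), in 10 symbols with 1 to 29 counts (3.2%) and in 1 symbol at 0 (0.1%). At least 15 A in the 20 genomic bases after the copy, the remnant of a poly(A) tail, were found in 81 members (55.1%), 107 of the next class (34.6%) and 164 of those at 0 (17.8%). RPL36AP37 and RPL21P16 matched their parents at every aligned base, 399 and 566 bases. For RPL6P27, RPSAP58 and RPL7P9 the last 200 aligned bases were identical to the parent. The parent transcript used ran on for 104 bases after this stretch for RPSAP58 and 399 for RPL7P9, and where tags fell was not examined. No tag from the identical stretch can be told apart from a tag of the parent, and the counts of these members are uncertain for that reason.

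Counts were spread unevenly. The median member had 448 counts, 57 had at least 1000 and 41 had 30 to 99. The members took 3.78% to 4.79% of the counts of every LNCaP and 22Rv1 library and 2.55% to 2.75% in the PC3 libraries. Their parents took 3.81% to 6.88%, and the members' part of both together stayed between 39.8% and 44.04% in all 16 libraries. A 3′ tag is taken once from a transcript end, so counts of members and parents were set side by side without scaling by length.

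Of the 147 members, 21 had more counts than their parent, 36 had at least 0.5 times its counts and 33 had under 1% of them, with a median ratio of 0.0766. The parents of the highest ratios encode proteins of either ribosomal subunit. RPL36AP37, in an intron of PLEKHA7 at chr11:16974693-16975013, had 8541 counts against 123 for RPL36A, a ratio of 69.4. RPS26P58 had 2533 against 237, RPL21P119 had 13693 against 2363 and RPL7P9 had 19914 against 4308. Of the 21 members above their parent, 19 had an identity of at least 97%. Pseudogenes held 98.6% of the counts of the RPL36A family, 91.1% of the RPL21 family and 86.6% of the RPL7 family, so in these families most reads were counted outside the parent gene.

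**Figure D1:**
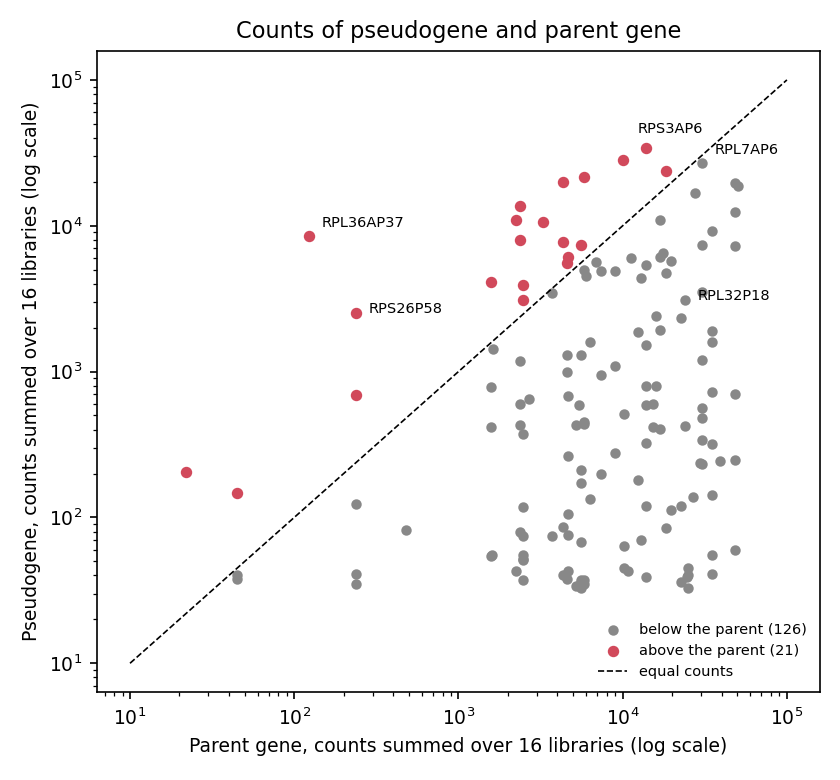
Summed counts over the 16 libraries of each of the 147 members (y axis, log scale) against the summed counts of its parent gene (x axis, log scale), 1 point a member. Points above the line of equal counts are the 21 members with more counts than their parent, led by RPL36AP37 with 8541 counts against 123.

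RPS3AP6, a copy of the small-subunit gene RPS3A at chr15:59768352-59769146 with 99.3% identity, had the most counts, 34289. It stood at 2648, 3307 and 2999 CPM in LNCaP siCtrl, at 5002, 4458 and 3543 CPM in 22Rv1 siCtrl and at 1152, 1187 and 1277 CPM in PC3 siCtrl. The 3 lines did not overlap, with 22Rv1 highest and PC3 lowest. The parent RPS3A had the same order, at 1049, 1313 and 1108 CPM in LNCaP, 2038, 1753 and 1504 CPM in 22Rv1 and 441, 497 and 487 CPM in PC3. The ratio of RPS3AP6 to RPS3A therefore stayed between 2.34 and 2.71 in all 16 libraries.

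RPL7P9, a copy of the large-subunit gene RPL7 at chr1:96678874-96679620 on the minus strand, was at 1405, 1527 and 1475 CPM in LNCaP siCtrl, 1529, 1638 and 1324 CPM in 22Rv1 siCtrl and 2003, 2099 and 2136 CPM in PC3 siCtrl. It was one of few abundant members with PC3 as the highest line.

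The highest ratio to the parent over the 16 libraries was under 1.5 times the lowest for 28 of the 57 members with at least 1000 counts, with a median of 1.52 times. RPL14P1, a copy of the large-subunit gene RPL14, had the widest range. Its ratio to RPL14 was 0.803, 0.970 and 0.717 in 22Rv1 siCtrl and 0.768 and 0.482 in 22Rv1 siMED12, against 0.420 to 0.512 in LNCaP and 0.387 to 0.523 in PC3. The 22Rv1 siCtrl libraries lay above all libraries of the other lines, and 1 of the 2 siMED12 libraries did not.

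Between the siCtrl spheroids, members were mostly lower in PC3. In PC3 against LNCaP, 79 of 108 tested members passed an adjusted p of 0.05, 6 higher and 73 lower (73.1%, beside 54.7% of all tested genes, 29.2% higher and 25.5% lower). In PC3 against 22Rv1, 70 passed, 6 higher and 64 lower (64.8%, beside 54.9%, 28.7% higher and 26.1% lower). In 22Rv1 against LNCaP 43 passed, 9 higher and 34 lower (39.8%, beside 43.2%, 22% higher and 21.2% lower). The 3 comparisons share libraries. The median log2 fold change of members was -1.04, -0.82 and -0.24 in that order, the median of their parents -0.76, -0.57 and -0.37, and the median of all genes 0.05, 0.01 and 0.00.

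Of the 8 members with the highest counts, 7 were lower in PC3 than in LNCaP, by log2 fold changes from -1.60 (SE 0.11) for RPL7AP6 and -1.31 (SE 0.12) for RPS3AP6 to -0.56 (SE 0.10) for RPL6P27 and -0.45 (SE 0.15) for RPSAP58. RPL7P9 was higher, by 0.50 (SE 0.11). The call of RPSAP58, a copy of the laminin receptor and small-subunit gene RPSA, had an adjusted p of 0.0106 in edgeR and was lost without the LNCaP siCtrl replicate 2 library, at -0.31 and 0.114.

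The members higher in PC3 than in LNCaP came from 3 parents, RPL22, RPS24 and RPL7. RPS24P19, a copy of the small-subunit gene RPS24 within GPC3 on the opposite strand, was at 134, 140 and 113 CPM in LNCaP siCtrl, 88.5, 107 and 103 CPM in 22Rv1 siCtrl and 375, 427 and 435 CPM in PC3 siCtrl. All PC3 libraries lay above all others. It rose by 1.68 in PC3 against LNCaP, RPS24P8 by 1.44 and RPS24 itself by 1.43 (edgeR adjusted p 6.37e-13 for RPS24). RPS24 stood at 950, 722 and 2551 CPM in LNCaP, 22Rv1 and PC3, the same order.

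Counts of parent and member moved by similar amounts between lines. Counts of a member can hold reads of its parent, so these are not independent measurements. For the 106 members that passed the filter together with their parent, the log2 fold change of the member minus that of the parent had a median of 0.02 in 22Rv1 against LNCaP (quartiles -0.21 and 0.25), 0.00 in PC3 against LNCaP (-0.12 and 0.15) and -0.01 in PC3 against 22Rv1 (-0.13 and 0.12). It lay within 0.5 for 90, 92 and 87 of them and beyond 1 for 4, 6 and 8. The median size of this difference was 0.124, 0.102 and 0.085 for members with at least 1000 counts, and 0.306, 0.242 and 0.272 for those with at least 100 and under 1000.

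**Figure D2:**
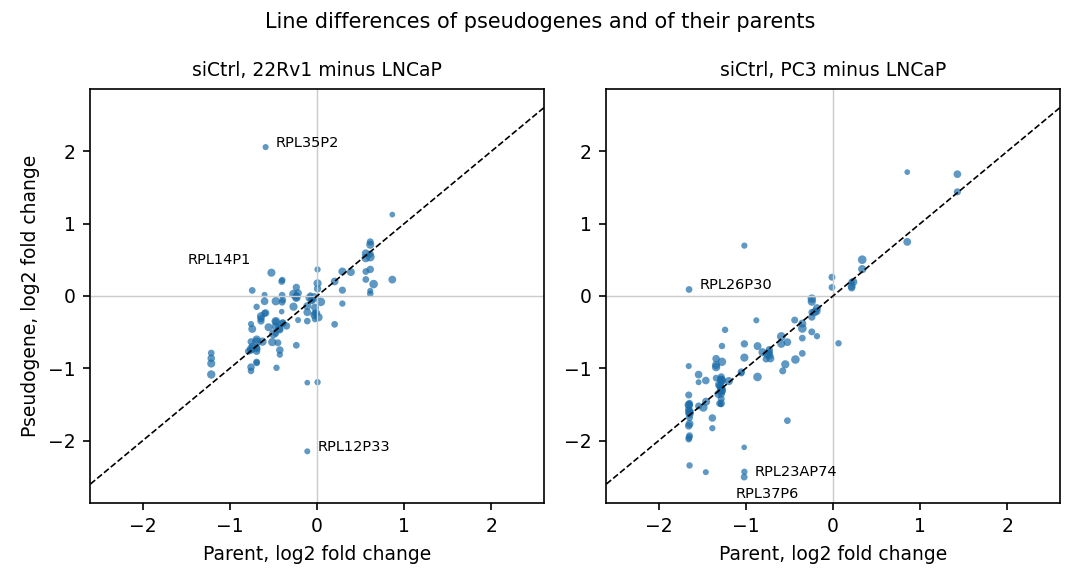
Log2 fold change of each tested member (y axis) against that of its parent gene (x axis) between siCtrl spheroids of 22Rv1 or PC3 and those of LNCaP, 1 point a member, larger with more counts, with the line of equal change. Most points lie near the line, and 22Rv1 against LNCaP shows RPL35P2 at 2.06 with its parent at -0.59.

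RPL35P2, a copy of the large-subunit gene RPL35 at chr6:34263311-34263673 on the minus strand, departed from its parent. It had 5, 6 and 3 counts in LNCaP siCtrl, 24, 16 and 17 in 22Rv1 siCtrl and 0, 4 and 3 in PC3 siCtrl. The siMED12 libraries held 5, 2 and 4 counts in LNCaP, 19 and 22 in 22Rv1 and 1 and 3 in PC3, so all 5 libraries of 22Rv1 lay above the other 11. The log2 fold change in 22Rv1 against LNCaP was 2.06 (SE 0.43, edgeR adjusted p 0.000246), while RPL35 was at -0.59. Its ratio to RPL35 was 0.041 to 0.0599 in 22Rv1, 0.00403 to 0.0124 in LNCaP and 0 to 0.017 in PC3. A noncoding gene's exon overlaps it on the opposite strand.

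Other departures rested on few counts. RPL12P33 had 11, 13 and 19 counts in LNCaP siCtrl, 5, 1 and 3 in 22Rv1 siCtrl and 4, 6 and 9 in PC3 siCtrl. Its siMED12 libraries had 12, 5 and 17 counts in LNCaP, 8 and 1 in 22Rv1 and 1 and 2 in PC3. LNCaP was highest among the siCtrl libraries without overlap, and it overlapped the other lines once the siMED12 libraries were included. The log2 fold change in 22Rv1 against LNCaP siCtrl was -2.15 (SE 0.53, edgeR adjusted p 0.00122), and RPL12 was at -0.11.

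RPL23AP74, within the gene BCAS3 on its strand, had 23, 26 and 33 counts in LNCaP siCtrl, 12, 15 and 7 in 22Rv1 siCtrl and 9, 0 and 7 in PC3 siCtrl. The siMED12 libraries had 15, 16 and 15 counts in LNCaP, 17 and 11 in 22Rv1 and 0 and 5 in PC3. LNCaP lay above the others among the siCtrl libraries, and its siMED12 libraries overlapped 22Rv1. Its log2 fold change in PC3 against LNCaP siCtrl was -2.43 (SE 0.46, edgeR adjusted p 4.32e-05), against -1.02 for RPL23A and 1.19 for BCAS3. It was -1.72 without the PC3 siCtrl replicate 2 library, the one at 0, and -3.04 without the PC3 siCtrl replicate 1 library. RPL26P30 overlaps the noncoding gene CD81-AS1 and kept a level of 37.2, 38.7 and 39.8 CPM in LNCaP, 22Rv1 and PC3 siCtrl, while RPL26, a large-subunit gene, was at -1.65 in PC3 against LNCaP. RPL14P1, RPL35P2, RPL12P33, RPL23AP74 and RPL26P30 were chosen after their values were seen.

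No member was restricted to 1 line. At least 90% of the summed siCtrl level in 1 line was found for 0 of 147 members, beside 6.3% of the 13028 genes with at least 30 counts, and at least 80% for 0 members, beside 9.82%. Of 319 other processed pseudogenes, 6 met the 90% limit. The highest shares were 73.6% in 22Rv1 for RPL35P2, 71.5% in 22Rv1 for RPL23AP57, 67.2% in LNCaP for RPL26P6, 66.1% in LNCaP for RPSAP9 and 64.3% in PC3 for RPS24P19. RPL17P36 and RPL37P23 had 0 counts in all 5 PC3 libraries. With 38 and 45 counts in all, and up to 3 counts possible behind a count of 0, whether they are absent from PC3 cannot be shown at this depth.

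With MED12 knockdown, members passed the test at about the share of all tested genes in 22Rv1, and neither in LNCaP nor in PC3 did any member pass. In 22Rv1, 2 of 108 tested members passed, RPL32P16 higher and RPL32P18 lower (1.85%, beside 1.84% of all tested genes, 0.994% higher and 0.842% lower). RPL32P16 met the count rule and the expression filter only through the libraries in which it was high, so its call is not independent of how it was chosen. In LNCaP 0 members passed, beside 0.416% of all tested genes, and 14 were under 0.05 before adjustment. In PC3 0 passed, beside 0%, with 3 under 0.05 before adjustment. For the mean effect over the lines 0 passed, beside 0.265%, with 9 under 0.05 before adjustment. These are edgeR counts. DESeq2 and limma also called 0 members in LNCaP and in PC3, and for the mean effect DESeq2 called 0 and limma called 1, RPL32P16. The siMED12 and siCtrl libraries did not overlap for 24 members in LNCaP (22.2%, beside 12.6% of all tested genes), 13 in 22Rv1 (12.0%, beside 26.6%) and 20 in PC3 (18.5%, beside 20.7%).

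The median log2 fold change of the tested members was -0.15 in LNCaP, 0.06 in 22Rv1 and -0.10 in PC3. The members' change minus the parents' change had a median of 0.02, -0.02 and -0.00, and lay within 0.5 for 102, 97 and 93 of 106. The 8 members with the highest counts were not called in any line. Their log2 fold changes ran from -0.29 to -0.05 in LNCaP, from -0.05 to 0.16 in 22Rv1 and from -0.23 to -0.07 in PC3. Apart from RPL32P16 and RPL32P18, the values farthest from 0 belonged to members with few counts. RPL22P2 had 0, 4 and 4 counts in LNCaP siCtrl and 0, 0 and 1 in siMED12, a log2 fold change of -2.65 (SE 1.20) that did not pass, with an edgeR adjusted p of 0.637.

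**Figure D3:**
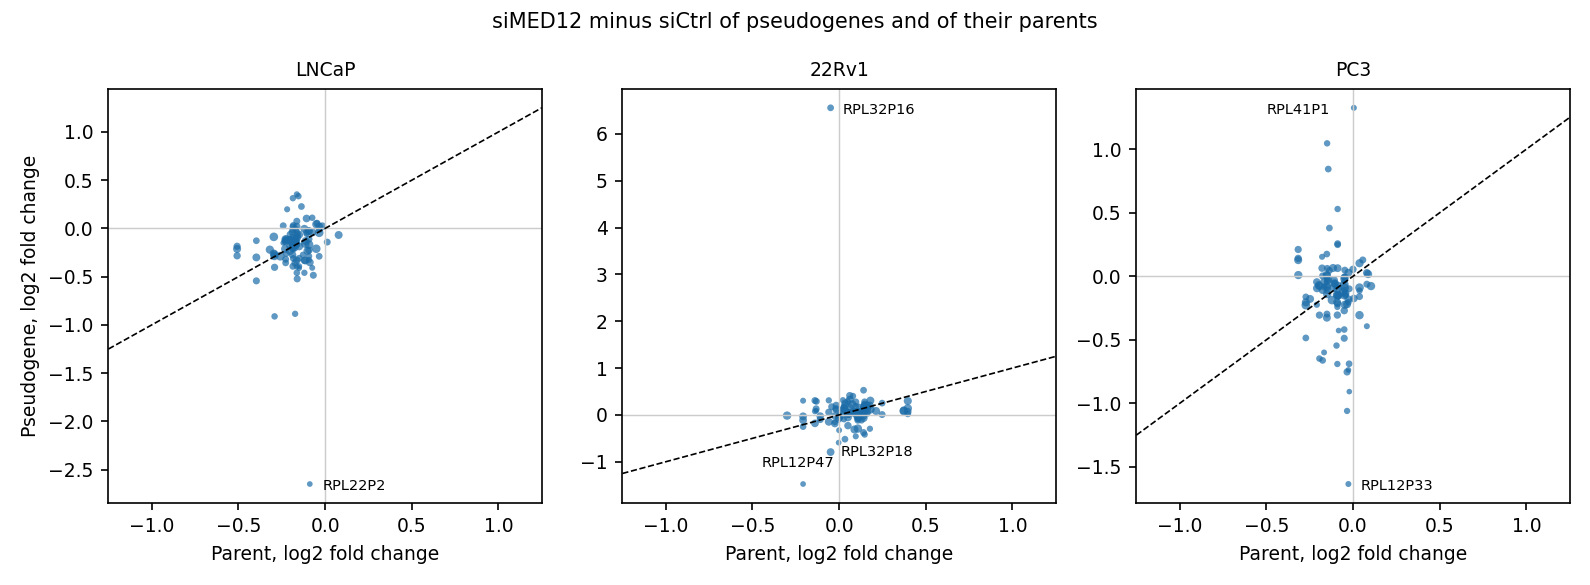
Log2 fold change with siMED12 of each tested member (y axis, a different range in each panel) against that of its parent gene (x axis), in LNCaP, 22Rv1 and PC3, 1 point a member, larger with more counts, with the line of equal change. Points gather around 0 in all 3 lines, and RPL32P16 stands at 6.56 in 22Rv1.

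RPL32P16 (ENSG00000219747.1, chr6:151099529-151099933, plus strand) is in an intron of MTHFD1L, which encodes a mitochondrial enzyme of one-carbon metabolism, on the same strand. It had 1, 1 and 3 counts in 22Rv1 siCtrl and 220 and 184 counts in 22Rv1 siMED12. It had 1, 1 and 5 counts in LNCaP siCtrl against 0, 4 and 2 in siMED12, and 0, 2 and 0 against 1 and 1 in PC3. Only the 2 siMED12 libraries of 22Rv1 were high, and no other library exceeded 5 counts. Of its 426 counts those 2 libraries held 404, and the 22 counts of the other 14 libraries are below the limit of 30. It is therefore a member, and passed the expression filter, only through the group in which it was high, and its 22Rv1 values are given as a description with no test.

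In 22Rv1 the level went from 2.27 ± 1.38 CPM (SD, n = 3) to 235 ± 1.94 CPM (SD, n = 2), a log2 fold change of 6.56 (SE 0.35). Without the 22Rv1 siCtrl replicate 3 library it was 7.17. The change was -0.26 (SE 0.81, edgeR adjusted p 0.988) in LNCaP, and PC3 held 2 counts in each group. The change in 22Rv1 minus that in LNCaP was 6.82 (SE 1.14), for which RPL32P16 was the only member past the threshold (beside 0.189% of tested genes), and without the LNCaP siCtrl replicate 3 library it was 5.87 and did not pass. This difference uses the same 2 libraries and is likewise a description. For the difference between PC3 and 22Rv1 0 members passed by edgeR and DESeq2 (beside 0.0946% of tested genes), 5 were under 0.05 before adjustment in edgeR, and limma called 1, RPL32P16. For the difference between PC3 and LNCaP 0 passed (beside 0.0284%) by edgeR, DESeq2 and limma, and 0 were under 0.05 before adjustment in edgeR. With the counts estimated as carried over between libraries subtracted, the log2 fold change of RPL32P16 in 22Rv1 was 6.58. MTHFD1L went from 51.2 to 38.7 CPM in 22Rv1 (log2 fold change -0.41, edgeR adjusted p 0.564).

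RPL32P18 (ENSG00000146677.7, chr7:44467897-44468304, plus strand) lies within NUDCD3, on the opposite strand. It had 272, 210 and 255 counts in 22Rv1 siCtrl and 198 and 145 counts in siMED12. In LNCaP it had 172, 232 and 266 counts against 187, 207 and 254, and in PC3 139, 176 and 148 against 144 and 90. Scaled to CPM, the groups of 22Rv1 did not overlap, at 344 ± 14.7 (SD, n = 3) against 198 ± 16.9 (SD, n = 2). The log2 fold change was -0.79 (SE 0.14, 95% interval -1.08 to -0.51, edgeR adjusted p 0.00114) in 22Rv1, -0.11 in LNCaP and -0.03 in PC3. The difference between 22Rv1 and LNCaP was -0.68 and did not pass (edgeR adjusted p 0.169). RPL32 itself was at 2482 ± 150 CPM in 22Rv1 siCtrl (SD, n = 3) and 2399 ± 214 CPM in siMED12 (SD, n = 2), a log2 fold change of -0.05 (edgeR adjusted p 0.924).

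Read as shares of the counts of RPL32, RPL32P16 and RPL32P18 together, RPL32P16 held 7.79% and 8.84% in the 22Rv1 siMED12 libraries and 0% to 0.280% in the other 14. RPL32P18 held 7.01% and 6.97% there and 10.7% to 14.5% in the other 14. Both pseudogenes together held 14.8% and 15.8% there and 10.7% to 14.8% elsewhere. One pseudogene's share was thus higher and the other's lower in the same 2 libraries, and whether reads were counted under the other copy was not tested. The other 34 RPL32 pseudogene symbols had 0 to 3 counts each.

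Over the 3 lines, the log2 ratio of RPL32P16 to RPL32 changed by 2.52 with siMED12, a description for the same reason. The ratio of RPL32P18 to RPL32 changed by -0.17 (exact permutation test within lines, 2-sided, p 0.231, where 2000 arrangements allow 0.0005). Of the 147 pairs tested in this way 3 had an unadjusted p of up to 0.05, or 2.04%, below the 5% that this threshold lets through on average when nothing changes. Within 1 line such a test cannot go below 0.10.

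**Figure D4:**
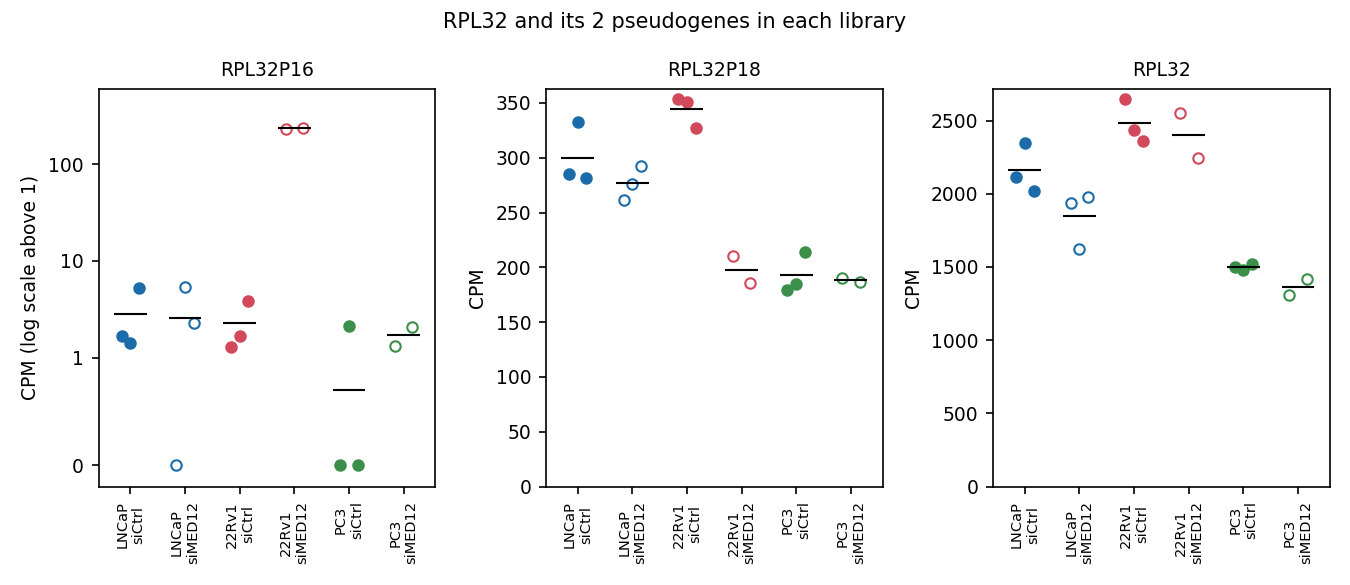
Level in CPM (y axis) of RPL32, RPL32P18 and RPL32P16 in each library, by line and treatment, with filled points for siCtrl, open points for siMED12 and a line at the mean of each group. The RPL32P16 axis is logarithmic above 1, and only its 2 siMED12 libraries of 22Rv1 stand high, with a mean of 235 CPM.

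The RPL37 pseudogenes differed widely between libraries of 1 group. RPL37P6, a transcribed processed pseudogene on chromosome 8, had 11, 80 and 20 counts in LNCaP siCtrl and 9, 12 and 101 in LNCaP siMED12. It had 18, 44 and 61 counts in 22Rv1 siCtrl and 62 and 59 in siMED12, and 7, 6 and 8 in PC3 siCtrl against 3 and 7. In LNCaP the siCtrl replicate 2 and siMED12 replicate 3 libraries stood far above the others, and the PC3 libraries were low.

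In LNCaP the same 2 libraries were highest for the other members of the family. RPL37P2 had 2, 13 and 2 counts in LNCaP siCtrl, 2, 2 and 12 in LNCaP siMED12, 1, 3 and 10 in 22Rv1 siCtrl and 9 and 3 in 22Rv1 siMED12. RPL37P23 had 0, 8 and 2 counts, 0, 1 and 7 counts, 0, 3 and 7 counts and 12 and 5 counts in that order, and 0 in PC3. Of the RPL37 family's counts, the 3 members held 1.86%, 11.6% and 2.07% in LNCaP siCtrl, 1.53%, 2.02% and 12.7% in LNCaP siMED12, 2.61%, 8.93% and 10.8% in 22Rv1 siCtrl and 9.50% and 10.4% in 22Rv1 siMED12. In PC3 they held 1.01% to 2.72%.

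The siMED12 change of RPL37P6 was 0.03 in LNCaP, 0.29 in 22Rv1 and -0.10 in PC3, and none passed. In PC3 against LNCaP siCtrl it was -2.50 (SE 0.76, edgeR adjusted p 0.00601). Without the LNCaP siCtrl replicate 2 library it was -1.18 and did not pass (edgeR adjusted p 0.264). The cause of the spread between libraries was not tested.

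**Figure D5:**
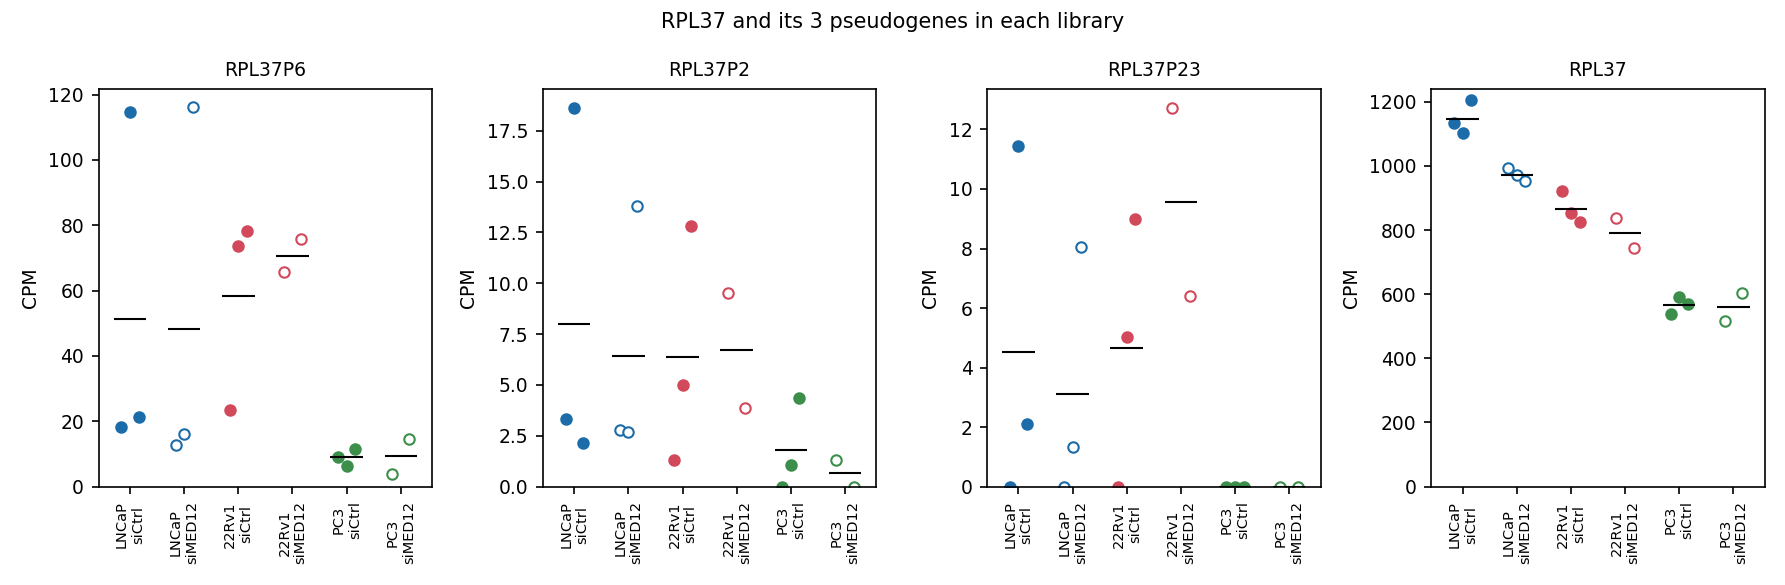
Level in CPM (y axis, a different range in each panel) of RPL37P6, RPL37P2, RPL37P23 and RPL37 in each library, by line and treatment, with filled points for siCtrl, open points for siMED12 and a line at the mean of each group. In LNCaP 1 siCtrl and 1 siMED12 library stand above the others for all 3 pseudogenes and not for RPL37.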

How the data were processed

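The 16 libraries were BRB-seq libraries of spheroid RNA. The authors aligned and counted reads with STARsolo on Gencode release 43, GRCh38.p13, and deposited raw counts per gene. The authors also deposited log2 CPM values made with edgeR, which were rebuilt from the counts to within 5e-14. Whether molecular identifiers were collapsed, and how reads matching several genes were handled, is not given in the sources used here.

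Counts were tested with the edgeR 4.0.16 quasi-likelihood test (R 4.3.3), with 6 group means, TMM scaling and the filterByExpr filter (minimum count 10, minimum total 15). P-values were 2-sided and adjusted by Benjamini-Hochberg over 10566 genes, with a threshold of 0.05, and levels are TMM-scaled CPM. An SE is the fold change divided by the square root of F. Ratios to the parent used a pseudocount of 0.5 and an exact permutation test within lines. Parents were found by removing P and the last number from the symbol, and all 147 members were matched by identifier to Gencode release 44 for coordinates. Sequences were read from GRCh38 and the Gencode 44 transcripts and aligned with Biopython 1.88. The test was checked on simulated counts.

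The members and lists were chosen with earlier results of these data known. Named members were those past the threshold with siMED12, the 8 with the highest counts, RPL32P16, their parents and enclosing genes, and MED12. The results of 1 gene chosen by this rule are not reported here. Members that departed from their parent, and the RPL37 family, were added after their values were seen. Replicates of a group differed by 1.60 to 3.43 times the sampling variance, so no library repeated the counts of another. Whether they came from separate cultures cannot be told from this ratio. Alternatives were size factors, no filter, DESeq2 1.42.0, limma 3.58.1, a replicate block, subtraction of counts estimated as carried over between libraries, and leaving out each library. A count of 0 allows up to 3 counts, which is 3.02 to 6.26 CPM, for counting error only.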

Additional observations from a re-analysis of the deposited data

Results flagged for a closer look

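The siMED12 effect on RPL32P16 differed between 22Rv1 and LNCaP by 6.82 on the log2 scale and was past the threshold in the edgeR test of the difference itself. The pseudogene had 220 and 184 counts in the 22Rv1 siMED12 libraries and at most 5 counts in any LNCaP library. It met the count rule and the expression filter only through those 2 libraries, so the difference is a description. Without the LNCaP siCtrl replicate 3 library, which held 5 of the 7 LNCaP siCtrl counts, it was 5.87 and did not pass, with an edgeR adjusted p of 0.329.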

How the results depend on the processing

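The numbers of members called in each line and in the 3 differences between siCtrl lines stayed within 1.5 times under every alternative listed next. These were DESeq2 size factors, no filter, DESeq2, the earlier edgeR quasi-likelihood method and subtraction of carried-over counts. Restriction to 1 line was recomputed under DESeq2 size factors, at the 80% limit and with 1 siCtrl library left out, and stayed at 0 members. It was not recomputed after subtraction of carried-over counts. The planned rule for carry-over found 0, 0 and 1 genes and was replaced by one chosen after seeing the data, with 2, 5 and 28 genes. Deviations of same-numbered siCtrl and siMED12 libraries from their group means correlated at 0.0874 to 0.127 in LNCaP. They correlated at 0.161 and 0.214 in 22Rv1 and at 0.0516 and 0.0730 in PC3. Different-numbered libraries correlated at -0.214 to 0.0718 over the 3 lines. In 22Rv1 and PC3 the deviations of the 2 siMED12 libraries are mirror images. Each siCtrl library's 2 correlations there differ only in sign and are not separate evidence. The numbers were not taken as pairing, although in all 3 lines every library with a same-numbered partner correlated best with it. Whether the numbers name paired cultures was not tested. With the replicate block the number of all genes called went from 44 to 117 in LNCaP, 194 to 312 in 22Rv1 and 0 to 20 in PC3, with 0, 2 and 0 members as before. Under it the mean effect called 2 members (RPL32P16 and RPL32P18) in place of 0, and the difference between 22Rv1 and LNCaP called 2 (RPL6P10 and RPL32P16) in place of 1. With limma the mean effect called 1 (RPL32P16) in place of 0, as did the difference between PC3 and 22Rv1. Leaving out 1 library gave 0 to 1 members for the difference between 22Rv1 and LNCaP, with 0 only without the LNCaP siCtrl replicate 3 library, and 2 in every case for 22Rv1. The log2 ratio change of RPL32P16 to RPL32 ran from 2.26 to 2.82 when 1 library was left out. Of 368 values for named genes under an alternative, 365 kept their direction and side of the threshold and 3 lost the call, each named above with its library. RPL32P16, RPL32P18, RPL35P2, RPL12P33, RPL23AP74 and RPL37P6 among them were named for their values in these data. The share that kept its side is therefore a description and no independent support for these members. Library totals of 479118 to 993807 counts limit what can be said of members with few counts.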
